A study of Mus musculus with 6 samples.

Results

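Nrf2 target genes and genes of iron storage and transport were followed in mouse kidney cells after DOCA-salt hypertension. The 10 genes were chosen by symbol: Hmox1, Nqo1, Gclc, Gclm, Srxn1, Txnrd1, Fth1, Ftl1, Tfrc and Slc40a1. All 10 were found among the 33696 features of the count matrices, and each had UMIs (unique molecular identifiers, counted RNA molecules) in all 6 libraries. Single-cell RNA of digested kidneys was sequenced from male C57BL/6 mice. They were 8 to 10 weeks old when bought, and thus older when the kidneys were taken. The 3 DOCA-salt mice lost the left kidney and were then given a 50 mg pellet of deoxycorticosterone acetate, a steroid that acts on the mineralocorticoid receptor, with 1% NaCl in the drinking water for 21 days. The 3 sham mice had sham surgery, no pellet and normal water. The effect of nephrectomy and the effect of steroid with salt cannot be told apart in this design, and p-values measure the spread between these 3 mice per group.

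Nrf2 (gene Nfe2l2) is a transcription factor that Keap1 holds at a low level by marking it for breakdown. Oxidants and electrophiles modify Keap1, Nrf2 then accumulates, pairs with a small Maf protein and switches on genes for glutathione synthesis, quinone reduction and repair of oxidised thiols. Iron genes are tied to the same network because free iron feeds oxidant formation. Ferritin stores iron, the transferrin receptor brings it in and ferroportin lets it out. Much of their control lies after transcription: iron regulatory proteins bind a short hairpin in the RNA, the iron-responsive element, when cells are low in iron. Binding in the 5′ UTR blocks translation and binding in the 3′ UTR protects the RNA from decay, so that RNA levels of the 3′ UTR class can follow iron while those of ferritin need not.

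The hairpins in the iron genes are shown because they are the sites through which iron acts on these RNAs. Positions are on GRCm39 with GENCODE M39 transcripts, each sequence reads 5′ to 3′ on the strand of the gene, and capitals mark the bulged C and the 6 bases of the loop. The search asked for C, 5 bases, CAGTG and 1 further base, then 5 bases able to pair with the first 5. It matched 4 of the 10 genes and 1.33% of 21757 protein-coding transcripts, with 0.11% of transcripts matched in the 5′ UTR and 0.575% in the 3′ UTR.
Fth1, 5′ UTR, chr19:9960096-9960124, plus strand: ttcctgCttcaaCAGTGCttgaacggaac
Ftl1, 5′ UTR, chr7:45109203-45109231, minus strand: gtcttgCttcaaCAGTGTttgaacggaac
Slc40a1, 5′ UTR, chr1:45964625-45964653, minus strand: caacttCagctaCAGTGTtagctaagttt
Tfrc, 3′ UTR, chr16:32450037-32450065, plus strand: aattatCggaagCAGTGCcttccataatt
Tfrc, 3′ UTR, chr16:32450416-32450444, plus strand: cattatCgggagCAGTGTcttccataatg
Tfrc, 3′ UTR, chr16:32450481-32450509, plus strand: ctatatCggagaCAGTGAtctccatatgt
Tfrc, 3′ UTR, chr16:32450528-32450556, plus strand: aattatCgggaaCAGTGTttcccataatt
Both ferritin genes and Slc40a1 carried a single match, and Tfrc carried 4 in its 3′ UTR. The letters TGACNNNGC, the fixed bases of the antioxidant response element, were found on either strand between 1000 bases before and 100 bases after the start of 3 of the 10 genes (Gclm, Srxn1 and Txnrd1). They were found in 32.2% of all 21757 promoters. Gclm, Txnrd1 and Ftl1 overlap an annotated gene on the same strand (Gm6061, Eid3 and Gm56125), so counting could have split their reads.

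Each library held between 93172739 and 137819127 UMIs. After filtering and removal of 5215 likely doublets, 55346 cells remained, and 13 cell types were tested, each with at least 10 cells of every mouse. Cycling cells (52 to 172 per mouse), a state that can mix cell types, were left out of the tests. Of 93 marker genes, 86 were highest in the cell type they stand for, among the 13 types tested and by the higher group mean. The clusters were named from these same markers, so this count is no check of the names. Pairs of libraries shared 0.26% to 0.52% of their barcodes. Sham 1, sham 3 and DOCA-salt 2 differed from sham 2, DOCA-salt 1 and DOCA-salt 3 along an axis that held 63.1% of the variance within groups. The labels name no batch that would match this split, which was found after the data were seen. Levels below are in CPM, the UMIs of a gene scaled to a common total of UMIs in the summed cells. The cluster called injured tubule here was named from both groups together. Krt20, Vcam1 and Dcdc2a were found in its cells of both groups and were higher in sham, whereas Havcr1, the injury marker KIM-1, had a mean of 1.48 CPM in sham and 138 in DOCA-salt cells. In the type called distal convoluted and connecting tubule, Slc12a3, Pvalb, Trpm6 and Calb1 were highest. Trpv5 (35.6 in sham, 44.9 in DOCA-salt) and Slc8a1 (4978 and 4429) were higher in another type (261 and 5953). How far this type holds connecting tubule cells is thus uncertain. Changes are fitted log2 values, DOCA-salt minus sham, and a gene is said to have risen or fallen only where the adjusted p (edgeR quasi-likelihood test, adjusted over all genes tested in that cell type) was under 0.05.

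The genes had their highest levels in different cell types. Hmox1, the enzyme that opens heme and frees its iron, had its highest level in macrophages, with a mean of 226 CPM over the 6 mice against 92.5 in proximal tubule cells, the next type. Macrophages were above the proximal tubule in 6 of 6 mice (log2 difference 1.28 ± 0.28 SD, exact two-sided sign-flip test p = 0.031, the smallest possible with 6 mice, adjusted over the 10 genes 0.0446). Nqo1, Gclc, Gclm, Srxn1, Txnrd1 and Tfrc were each lower in macrophages than in the proximal tubule in 6 of 6 mice, with the same exact p. The differences ran from -0.60 for Txnrd1 to -2.72 for Nqo1 on the log2 scale with a pseudocount of 1. Fth1 (-0.11) and Ftl1 (0.13) were not separated between these cell types, and each was higher in macrophages in 3 of 6 mice. Slc40a1 was lower in macrophages in all but 1 mouse and missed the threshold (adjusted exact p = 0.0781).

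Within the nephron, Gclc stood highest in intercalated cells (mean 502), above principal cells (342) in 6 of 6 mice. Gclm had its highest mean in the proximal tubule in sham mice (339, against 203 in the injured tubule cluster), while in DOCA-salt mice the injured tubule cluster was higher (281 against 268). Tfrc had its highest mean in distal convoluted and connecting tubule cells (172), above the next type in 6 of 6 mice. Nqo1 was level between the proximal tubule (26.9) and the distal convoluted and connecting tubule (26.7), with the proximal tubule higher in 3 of 6 mice. The order of Srxn1 also turned by group, with the injured tubule cluster above intercalated cells in sham (64.4 against 50.6) and below them in DOCA-salt mice (21.4 against 44.1). Txnrd1 was higher in thin limb (143) than in principal cells (132) in 4 of 6 mice. Slc40a1 had its highest mean in the injured tubule cluster (41.7), next to the proximal tubule (36.4), an order seen in 4 of 6 mice.

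**Figure D1:**
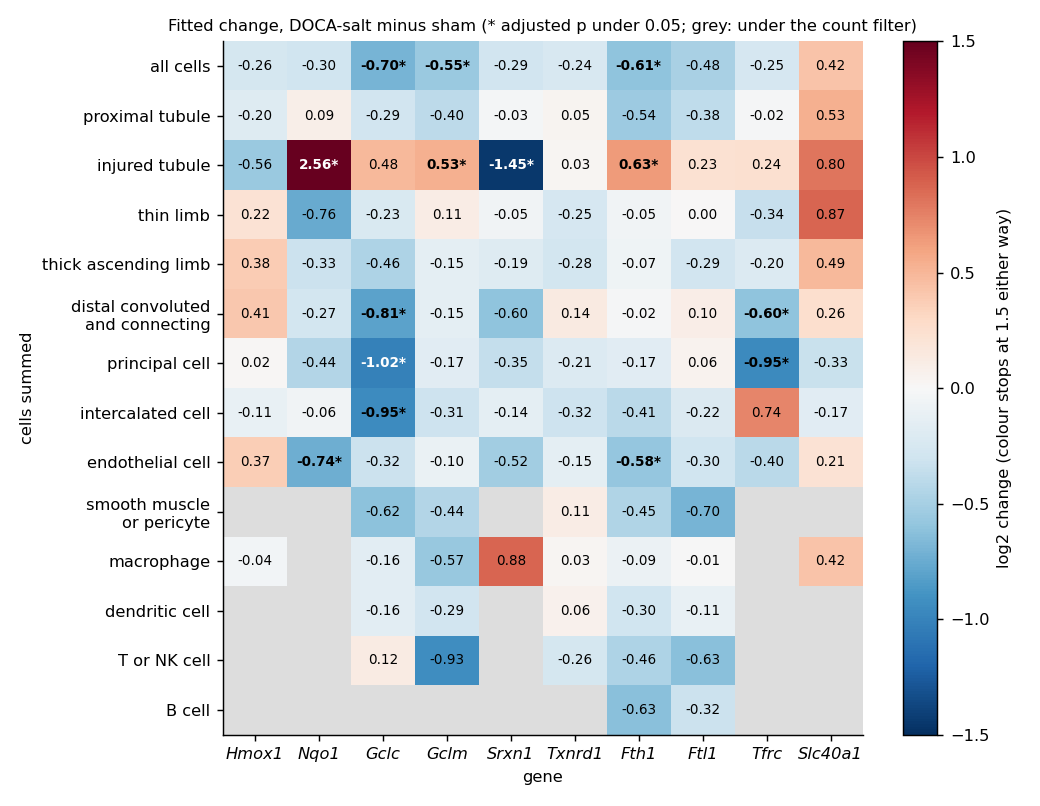
Fitted log2 change (DOCA-salt minus sham) of the 10 genes in the sum of all cells and in 13 cell types, as colour, with asterisks at an adjusted p under 0.05 and grey where a gene was under the count filter. Gclc is lower in the 3 distal types marked for it, while the injured tubule row holds 3 marked rises (1 of them Nqo1, with 2 sham UMIs) and 1 marked fall.

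In the sum of all kidney cells, 3 of the 10 genes fell and none rose, beside 5.57% of all 19576 genes lower and 11.8% higher. Those that fell were Gclc and Gclm, the catalytic and the modifier subunit of the enzyme that limits glutathione synthesis, and Fth1, the ferritin heavy chain. The median change of the 10 genes was -0.29, with 9 below 0, and the median of all genes was -0.025. Such a sum cannot tell fewer cells of a type from less RNA per cell. The mix of cells also differed: the proximal tubule supplied 85.7% of Fth1 UMIs in sham and 68.9% in DOCA-salt libraries, and 83.9% and 72.0% of Gclm UMIs. Without sham 2, Srxn1 and Ftl1 were called lower and Slc40a1 higher as well.

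Outside the proximal tubule and macrophages, 87 of the 110 pairs of a gene and 1 of the other 11 cell types could be tested, and 3 were higher and 8 lower in DOCA-salt mice. Of the 3, Nqo1 in the injured tubule cluster passed the count filter only through the DOCA-salt libraries and is not counted as support. Over all genes tested in these types, 3.49% were higher and 3.18% lower. The lower count was 16 without sham 2 and 5 without sham 1, DOCA-salt 1 or DOCA-salt 3, and the higher count was 0 without sham 3 or DOCA-salt 3 and 1 without sham 1 or DOCA-salt 1. All 11 lay in 5 types: injured tubule, distal convoluted and connecting tubule, principal, intercalated and endothelial cells. None of the 10 genes tested was called in the proximal tubule (4.42% of all genes were higher and 1.9% lower), the thin limb (0.578% in either direction) or the thick ascending limb (1.58%). The same held for the 8 genes tested in macrophages (2.78% of all genes higher, 2.66% lower), 5 in smooth muscle cells or pericytes (2.42% in either direction), 5 in dendritic cells (0.407%) and 5 in T or NK cells (2.03%). B cells had 0.0% of 1619 genes called and 2 of the 10 genes tested. There edgeR gave 48 higher and 44 lower at an unadjusted p under 0.05, and DESeq2 called 0 as well.

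Gclc (chr9:77661797-77701770, plus strand) fell in 3 cell types of the distal nephron and collecting duct. In principal cells, which reabsorb sodium and water, its level was 403, 477 and 473 in sham 1 to 3 and 226, 257 and 214 in DOCA-salt 1 to 3. In intercalated cells, which handle acid and base, it was 585, 729 and 699 against 353, 339 and 310.0. Distal convoluted and connecting tubule cells had 343, 326 and 315 in sham and 251, 193 and 174 in DOCA-salt mice. In each of these 3 types every DOCA-salt mouse was below every sham mouse. The fitted changes were -1.02 ± 0.14 (SE, adjusted p = 0.00047) in principal cells, -0.95 ± 0.13 (SE, adjusted p = 0.0020) in intercalated cells and -0.81 ± 0.16 (SE, adjusted p = 0.0028) in distal convoluted and connecting tubule cells. All 3 calls held under each of 17 alternative settings. The share of all genes that were lower was 7.28% in principal cells, 3.16% in intercalated cells and 3.15% in distal convoluted and connecting tubule cells. The size of the fall depended on cell filters in 2 of the types: it was -0.56 in principal cells when doublets were kept, and -1.52 in distal convoluted and connecting tubule cells when barcodes above 20% mitochondrial UMIs were left out.

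The change of Gclc was smaller in the proximal tubule, which made up most of the cells. Levels there were 224, 188 and 191 in sham and 168, 185 and 162 in DOCA-salt mice. The groups did not overlap, yet the change of -0.29 ± 0.11 (SE, adjusted p = 0.16) missed the threshold. The difference between each distal type and the proximal tubule was tested as an interaction, a comparison chosen after the changes had been seen. It was -0.74 ± 0.13 (SE, adjusted p = 0.0021) for principal, -0.68 ± 0.12 (SE, adjusted p = 0.0043) for intercalated and -0.52 ± 0.13 (SE, adjusted p = 0.0054) for distal convoluted and connecting tubule cells. These tests share the proximal tubule libraries. In all kidney cells together Gclc had levels of 243, 235 and 238 in sham and 169, 162 and 146 in DOCA-salt mice. That is a fitted change of -0.70 ± 0.10 (SE, adjusted p = 0.0035), kept under all 15 alternatives run on that sum.

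Clusters inside the cell types are given for Gclc as a description, without a test. Both principal clusters, 2 of 3 intercalated, 1 of 2 distal convoluted and connecting tubule and 3 of 3 thick ascending limb clusters had every DOCA-salt mouse below every sham mouse. Proximal tubule clusters differed among themselves: 2 of 9 were lower and 2 of 9 higher without overlap, and the ratio of group means ran from 0.727 to 1.2. In the thick ascending limb as a whole the levels were 172, 221 and 216 against 166, 142 and 135, also without overlap, and the change of -0.46 ± 0.13 (SE, adjusted p = 0.14) was not called. Endothelial cells (87.6, 88.7 and 92 against 68.5, 71.7 and 73.2) and smooth muscle cells or pericytes (103, 65.7 and 62.1 against 38.2, 56.9 and 60.6) did not overlap either and had no call. With the proximal tubule, every DOCA-salt mouse lay below every sham mouse in 7 of 13 types. These types and clusters come from the same mice, and the share of all genes without overlap was not computed, so such counts are a description only. The summed level of 12 proximal tubule markers was 776 to 1229 in DOCA-salt and 1226 to 3427 in sham principal cells, and 1049 to 1254 and 1225 to 2698 in intercalated cells. In both types DOCA-salt 3 was just above sham 2, so the groups overlapped. The sum of 21 dissociation-response genes was 7819 to 8545 in DOCA-salt and 9510.1 to 12349 in sham intercalated cells, and overlapped in principal cells (12923 to 14611 against 11959 to 15389). In distal convoluted and connecting tubule cells the proximal tubule markers summed to 1026 to 1907 in DOCA-salt and 3012 to 4989 in sham mice, and the dissociation-response genes to 8592 to 12424 and 6099 to 7883, both without overlap. Their part in the values of Gclc, or of Tfrc, Fth1, Ftl1 and Srxn1 in these types, was not tested.

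**Figure D2:**
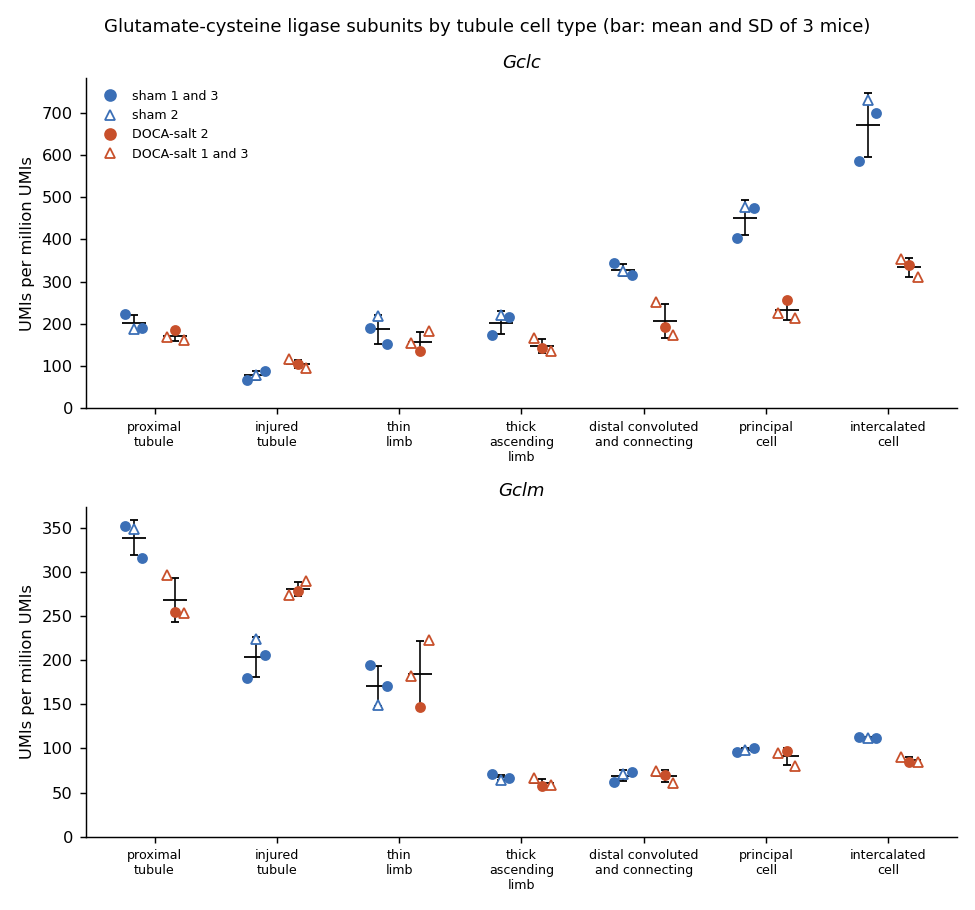
Gclc and Gclm in 7 tubule cell types, in CPM, 1 point per mouse with the mean and SD of each group of 3; filled circles are sham 1, sham 3 and DOCA-salt 2, open triangles the other 3 libraries. Gclc in principal, intercalated, and distal convoluted and connecting tubule cells has all DOCA-salt points under all sham points, whereas Gclm in the injured tubule has them above.

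Gclm (chr3:122039126-122065061, plus strand) was compared with Gclc by its values, and no test of the difference between the genes was run. In the proximal tubule, which held most Gclm UMIs, the levels were 351, 349 and 315 in sham and 297, 255 and 253 in DOCA-salt mice. The groups did not overlap, and the change was -0.40 ± 0.12 (SE, adjusted p = 0.085). DESeq2 called this fall, as did the edgeR fit with a term for the shift between libraries. Of all proximal tubule genes they called 659 and 1138 lower, against 309 in the main fit. The term was taken from these same libraries, so its call is no separate support. In principal cells, where Gclc fell, Gclm was 96.1, 97.9 and 101 against 95.2, 97.6 and 79.8 with a change of -0.17 ± 0.12 (SE, adjusted p = 0.41). The distal convoluted and connecting tubule likewise gave overlapping levels (62.2, 71.3 and 73.8 against 73.8, 70.2 and 61). Intercalated cells had 113, 111 and 112 in sham and 90.8, 84.2 and 85.1 in DOCA-salt mice, without overlap, and the change of -0.31 ± 0.10 (SE, adjusted p = 0.11) was not called. In these cells and in the proximal tubule the DOCA-salt mice were below the sham mice for both genes, and in the injured tubule cluster they were above for both. Over all cells Gclm was 274, 273 and 231 in sham and 215, 180.4 and 176 in DOCA-salt mice, a change of -0.55 ± 0.13 (SE, adjusted p = 0.019). That call was lost without sham 1 (adjusted p = 0.075), DOCA-salt 2 (0.077) or DOCA-salt 3 (0.095).

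Nqo1 (chr8:108113835-108129934, minus strand) reduces quinones with both electrons in a single step. It fell in endothelial cells, from 14.5, 13.8 and 11.3 in sham to 7.24, 8.41 and 7.77 in DOCA-salt mice, levels that did not overlap. The change was -0.74 ± 0.20 (SE, adjusted p = 0.043), and 3.34% of all genes were lower in that type. The call was lost in 10 of 17 alternatives, including each of the 6 in which 1 mouse was left out (adjusted p 0.053 to 0.14), and shrank to -0.46 when doublets were kept. The drop in endothelial cells also differed from the proximal tubule (-0.83 ± 0.20 (SE, adjusted p = 0.017)), where 5.51% of all genes had a lower difference, a call lost without sham 1, sham 3, DOCA-salt 1 or DOCA-salt 2 (adjusted p 0.050 to 0.072). Nqo1 in the proximal tubule was 27.6, 28.6 and 20.4 against 31.7, 30.8 and 22.2, with overlapping groups. Its mean was lower in DOCA-salt mice in 9 of 13 types and higher in the others. The thin limb changed by -0.76 ± 0.30 (SE, adjusted p = 0.40), with overlapping groups. Principal cells (-0.44 ± 0.21 (SE, adjusted p = 0.19)) and the thick ascending limb (-0.33 ± 0.19 (SE, adjusted p = 0.57)) did not overlap. None of these 3 was called. Proximal tubule markers summed to 2246 to 4343 in sham and 969 to 2463 in DOCA-salt endothelial cells. Hemoglobin genes summed to 6.24, 0.69 and 2.52 in sham and 164, 167 and 8.69 in DOCA-salt endothelial cells. The part of either in the Nqo1 values was not tested.

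Txnrd1 (chr10:82669785-82733546, plus strand), the reductase that recharges cytosolic thioredoxin, was not called in any of the 12 cell types in which it passed the count filter. Its proximal tubule levels were 135, 106 and 93.5 in sham and 126, 129 and 104 in DOCA-salt mice, a change of 0.05 ± 0.14 (SE, adjusted p = 0.88). Of 9 proximal tubule clusters, 5 had every DOCA-salt mouse above every sham mouse and none had a lower mean. The clusters share the same mice, and the matching share of all genes was not computed. In 3 types every DOCA-salt mouse was below every sham mouse without a call, and that share of all genes was not computed either. Intercalated cells had 127, 113 and 125 against 96.5, 96.9 and 87.7, a change of -0.32 ± 0.11 (SE, adjusted p = 0.14). The thin limb had 173, 144 and 151 against 133, 124 and 131 and the thick ascending limb 71.5, 69.7 and 71.3 against 56.5, 53.9 and 66.2. The distal convoluted and connecting tubule lay the other way, at 71.2, 51.8 and 73.2 against 84.5, 83 and 73.3, also without overlap and not called (0.14 ± 0.17 (SE, adjusted p = 0.71)).

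Hmox1 (chr8:75820241-75827217, plus strand) was not called in any type tested. Proximal tubule cells had 101, 107 and 83.3 in sham and 124, 60 and 79.4 in DOCA-salt mice. In macrophages they were 224, 188 and 246 and 315, 153 and 230.1. DOCA-salt 1 was the highest and DOCA-salt 2 the lowest of the 6 mice in both types. Thick ascending limb levels were 5.67, 5.49 and 6.30 in sham and 8.05, 6.77 and 8.21 in DOCA-salt mice, without overlap, at a change of 0.38 ± 0.21 (SE, adjusted p = 0.55). The macrophage change was -0.04 ± 0.22 (SE, adjusted p = 0.95), with a range of 2 SE from -0.48 to 0.39, and that of the proximal tubule was -0.20 ± 0.24 (SE, adjusted p = 0.67). The share of macrophages with an Hmox1 UMI, after thinning every cell to 1000 UMIs, was 10.8% ± 2.46 in sham and 15.6% ± 4.27 in DOCA-salt mice (SD, n = 3, exact two-sided permutation test p = 0.3, smallest possible 0.1). Without thinning the shares were 22.2% and 37.3%, at a median of 3809 UMIs per sham and 4550 per DOCA-salt macrophage. Thinning left out 47 sham and 278 DOCA-salt macrophages that were too shallow. T or NK cells, taken as background, held Hmox1 at 3.14 to 15.8 CPM.

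The cells that held the RNA differed between the groups, without a test. Of all Hmox1 UMIs, macrophages held 2.45% in sham and 11.4% in DOCA-salt libraries, and the proximal tubule held 88.3% and 72.3%. The libraries held 130 to 163 macrophages per sham mouse and 413 to 717 per DOCA-salt mouse. Fibroblasts, with 8 cells in all sham mice and 751 in DOCA-salt mice, held 0.182% and 9.12% of Slc40a1 UMIs. They were too few in sham mice to test.

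Fth1 (chr19:9957911-9962462, plus strand), which oxidises iron as it enters the ferritin shell, missed the threshold in the proximal tubule, which held most of its UMIs. Levels there were 14852, 14634 and 13642 in sham and 10862, 10258 and 9836 in DOCA-salt mice. No DOCA-salt mouse reached the lowest sham mouse, and the change was -0.54 ± 0.17 (SE, adjusted p = 0.088). DESeq2 and the fit with a term for the shift between libraries both called it. Of all proximal tubule genes they called 659 and 1138 lower, against 309 in the main fit. The term was taken from these same libraries, so its call is no separate support. Of 9 proximal tubule clusters with enough cells of every mouse, 8 had all DOCA-salt mice below all sham mice, and the mean was lower in all 9. The ratio of group means ran from 0.616 to 0.883 over these clusters. They share the same mice, and the share of all genes without overlap was not computed.

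Over all kidney cells Fth1 was 11324, 11027 and 9981 in sham and 8147, 7588 and 7185 in DOCA-salt mice. The change was -0.61 ± 0.16 (SE, adjusted p = 0.034), and the call was lost in 6 of 15 alternatives, among them without sham 1 (adjusted p = 0.12), sham 3 (0.063), DOCA-salt 2 (0.11) or DOCA-salt 3 (0.16). Endothelial cells gave 3568, 2974 and 3848 in sham and 2416, 2231 and 2278 in DOCA-salt mice. There the fall was -0.58 ± 0.15 (SE, adjusted p = 0.040), lost in 6 of 17 alternatives, 5 of which left out a mouse (sham 1, sham 3 or any DOCA-salt mouse). The proximal tubule marker and hemoglobin sums given for Nqo1 are those of the same cells, and their part in this fall was not tested. In macrophages the levels overlapped at 10973, 10766 and 11874 and 11216, 12029.9 and 10933, with a change of -0.09 ± 0.19 (SE, adjusted p = 0.86). The difference of change from the proximal tubule (edgeR interaction test) was called in macrophages for none of the 10 genes, beside 5.72% of all genes in either direction. For Fth1 it was 0.50 ± 0.18 (SE, adjusted p = 0.074) and for Ftl1 0.43 ± 0.16 (SE, adjusted p = 0.089). Without sham 3, 1 gene was called higher. In the thick ascending limb none was called either, beside 3.99% of all genes, with Fth1 at 0.46 ± 0.15 (SE, adjusted p = 0.10).

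**Figure D3:**
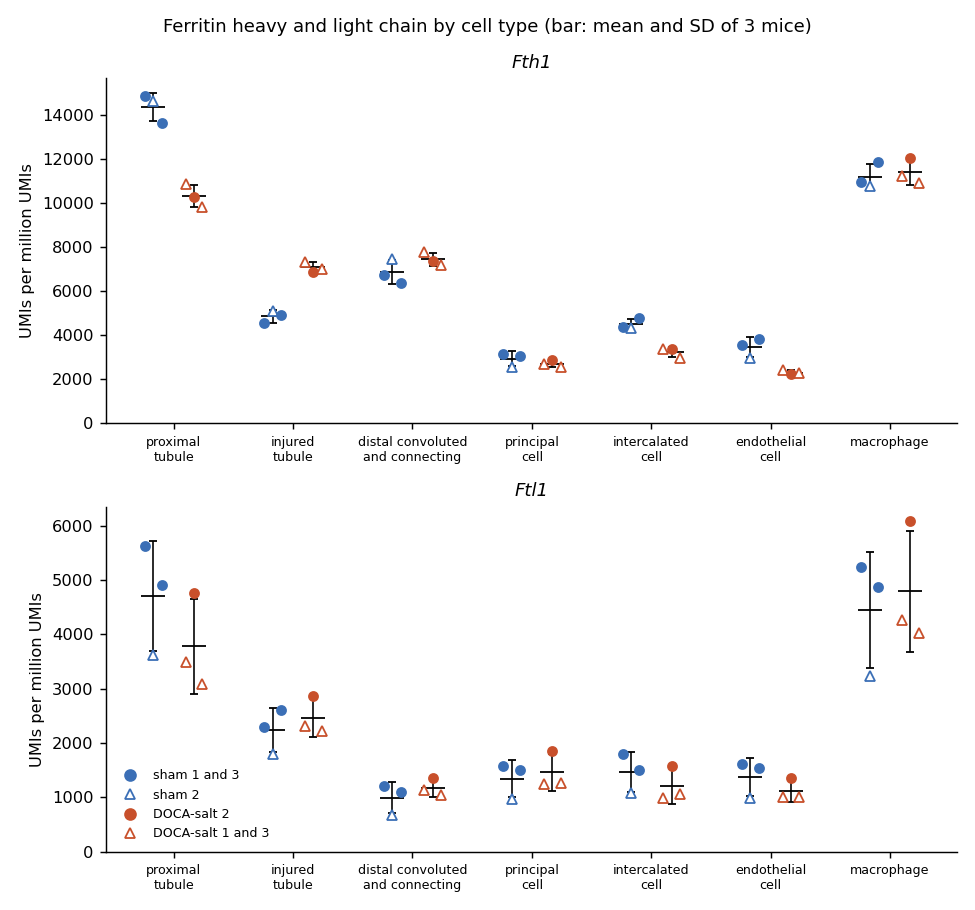
Fth1 and Ftl1 in 7 cell types, in CPM, 1 point per mouse with the mean and SD of each group of 3; filled circles are sham 1, sham 3 and DOCA-salt 2, open triangles the other 3 libraries. The 2 symbols separate within groups for Ftl1, while for Fth1 in the proximal tubule the DOCA-salt points lie under the sham points whatever their symbol.

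Ftl1 (chr7:45107367-45109308, minus strand), the ferritin light chain, moved with the shift between libraries. Proximal tubule levels were 5621, 3617 and 4903 in sham and 3498, 4757 and 3084 in DOCA-salt mice. Its loading on the axis of that shift was larger than that of 93.1% of 9213 genes, and that of Slc40a1 was larger than 93.8% and of Hmox1 than 86.9%. Sham 2 was the lowest sham mouse for Ftl1 and DOCA-salt 2 the highest DOCA-salt mouse in 13 of 13 cell types. No cell type had a called change, with -0.38 ± 0.22 (SE, adjusted p = 0.34) in the proximal tubule and -0.01 ± 0.22 (SE, adjusted p = 0.99) in macrophages. Within each side of the split the all-cell ratio of DOCA-salt to sham was 0.865 and 0.875. When sham 2 was left out, all cells gave a called fall of -0.65 (adjusted p = 0.044). The near-identical pseudogene Ftl1-ps1 was counted separately at 26.8 to 45.1 CPM over all cells. Reads that fit both loci were not measured, so the Ftl1 values are uncertain by an unknown amount.

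Tfrc (chr16:32427556-32451612, plus strand), the receptor that takes up iron-loaded transferrin and the only gene here with 3′ UTR hairpins in its RNA, fell in principal cells of the collecting duct. Principal cells had 66.2, 67.1 and 72.6 in sham and 30.3, 39 and 41.7 in DOCA-salt mice. The groups did not overlap, and the change of -0.95 ± 0.15 (SE, adjusted p = 0.0015) held under all 17 alternatives. Intercalated cells had 40, 37.3 and 33.9 in sham and 35.9, 65.8 and 77.7 in DOCA-salt mice. There DOCA-salt 2 and 3 were above every sham mouse and DOCA-salt 1 lay among them, and the change of 0.74 ± 0.23 (SE, adjusted p = 0.088) was not called. DESeq2 and the fit with a term for the shift between libraries called that rise. Of all genes in intercalated cells they called 307 and 860 higher, against 321 in the main fit. The term was taken from these same libraries.

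Against the proximal tubule, where Tfrc was 34.3, 26.7 and 44.9 and 29, 38.2 and 42.4, the principal cell difference was -0.97 ± 0.16 (SE, adjusted p = 0.0010), kept in all 8 alternatives. The difference for intercalated cells was 0.67 ± 0.19 (SE, adjusted p = 0.049) and was lost in 5 of 8, among them without sham 1, sham 3, DOCA-salt 2 or DOCA-salt 3 (adjusted p 0.073 to 0.19). In the distal convoluted and connecting tubule, where Tfrc had its highest level, it fell from 209.9, 220.3 and 169 in sham to 128, 165 and 137 in DOCA-salt mice without overlap. That change of -0.60 ± 0.16 (SE, adjusted p = 0.026) was lost in 6 of 17 alternatives, among them without sham 1 (adjusted p = 0.10), DOCA-salt 1 (0.18) or DOCA-salt 3 (0.14). It was -0.34 at no more than 20% mitochondrial UMIs. Its difference from the proximal tubule was -0.57 ± 0.17 (SE, adjusted p = 0.023), lost in 4 of 8 alternatives, among them without sham 1, sham 2 or DOCA-salt 3 (adjusted p 0.064 to 0.19).

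Slc40a1 (chr1:45947211-45965683, minus strand), the iron exporter ferroportin, was not called in any of the 9 cell types in which it passed the count filter. Its levels in the proximal tubule were 20.1, 40.4 and 26.6 in sham and 52.6, 37.4 and 41.3 in DOCA-salt mice. Sham 2 lay inside the DOCA-salt range and the other sham mice below it, and the change was 0.53 ± 0.25 (SE, adjusted p = 0.24). Without sham 2 the rise was 0.85 and called (adjusted p = 0.016), and at no more than 20% mitochondrial UMIs it was 0.72 (0.046). The fit without sham 2 keeps sham mice from only 1 side of the split between libraries. It called 1305 proximal tubule genes higher, against 717 in the main fit. Of 13 types, 2 had every DOCA-salt mouse above every sham mouse, without a call. The injured tubule cluster had 5.61, 35 and 44.3 in sham and 63.3, 47.9 and 54 in DOCA-salt mice, a change of 0.80 ± 0.30 (SE, adjusted p = 0.080). The thin limb had 3.10, 1.95 and 3.14 against 6.67, 3.48 and 5.18, a change of 0.87 ± 0.39 (SE, adjusted p = 0.48). These thin limb levels lay within the 0 to 10.0 CPM of T or NK cells. In 1 type, smooth muscle cells or pericytes, every DOCA-salt mouse was below every sham mouse, and Slc40a1 was under the count filter there. The share of all genes without overlap was not computed, so these counts are a description only. Principal cells had 35.8, 40 and 24.6 against 25.2, 26.1 and 32.2 and intercalated cells 19.8, 26.2 and 24 against 26.1, 16.9 and 15.6, with overlapping groups. The difference from the proximal tubule was -0.89 ± 0.25 (SE, adjusted p = 0.030) for principal and -0.80 ± 0.17 (SE, adjusted p = 0.012) for intercalated cells. The first was lost without sham 1, DOCA-salt 1 or DOCA-salt 2 (adjusted p 0.059 to 0.13) and the second without sham 1, DOCA-salt 2 or DOCA-salt 3 (0.055 to 0.059).

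Counted over all 10 genes, the difference from the proximal tubule was lower for 3 in principal cells (Gclc, Tfrc and Slc40a1), where 5.89% of all genes were lower. In intercalated cells 2 were lower (Gclc and Slc40a1) and Tfrc was higher, beside 5.26% and 3.22% of all genes. In the distal convoluted and connecting tubule 3 were lower (Gclc, Tfrc and Srxn1) and both ferritin genes were higher, beside 4.42% and 5.28%. The ferritin differences were 0.53 ± 0.13 (SE, adjusted p = 0.0055) for Fth1 and 0.52 ± 0.13 (SE, adjusted p = 0.0057) for Ftl1. In this distal type Fth1 was 6757, 7465 and 6381 in sham and 7769, 7389 and 7196 in DOCA-salt mice, with overlapping groups. The differences of Srxn1 (-0.56 ± 0.18 (SE, adjusted p = 0.040)), Fth1 and Ftl1 were lost in 6, 3 and 3 of 8 alternatives. The Srxn1 call was lost without any mouse but sham 2, the Fth1 call without any DOCA-salt mouse and the Ftl1 call without sham 2, DOCA-salt 1 or DOCA-salt 3.

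**Figure D4:**
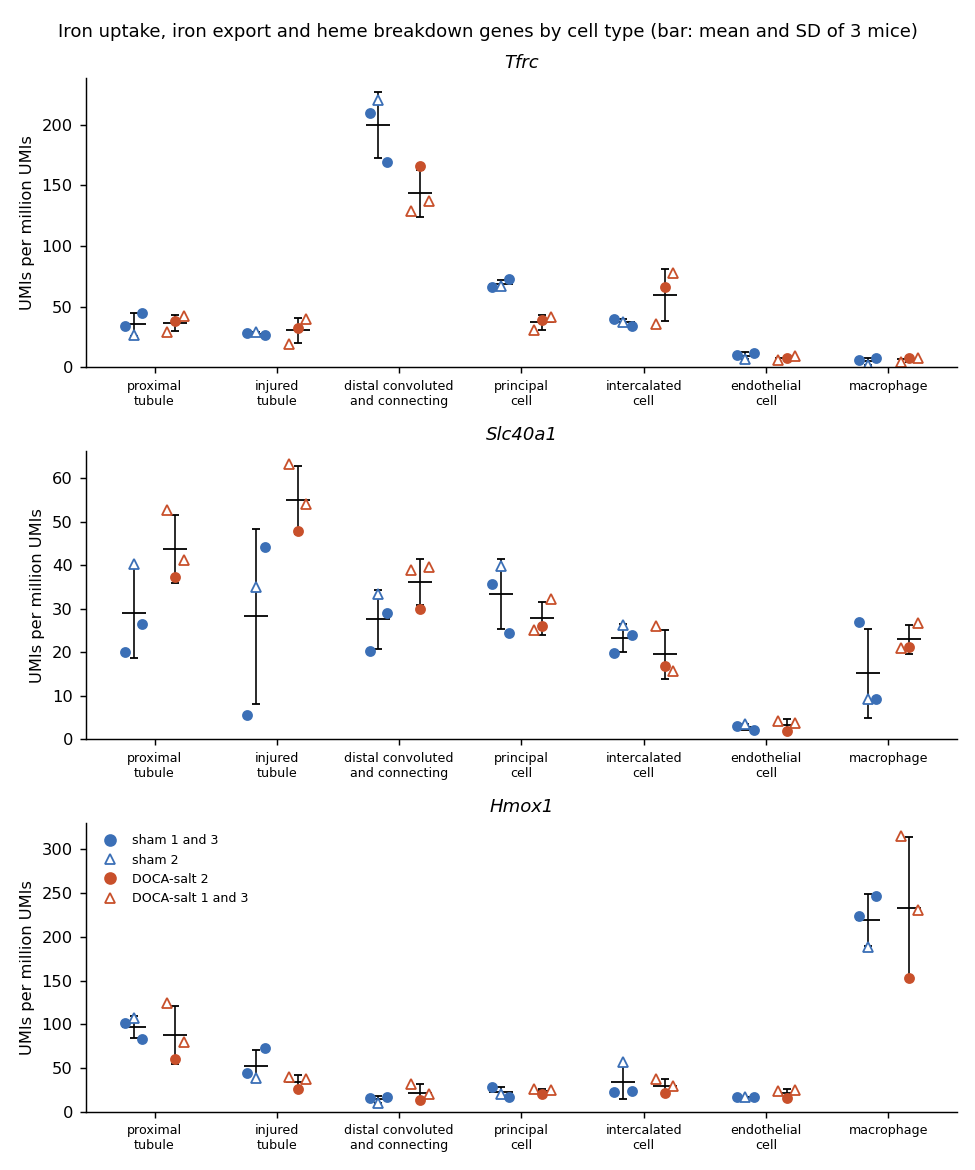
Tfrc, Slc40a1 and Hmox1 in 7 cell types, in CPM, 1 point per mouse with the mean and SD of each group of 3; filled circles are sham 1, sham 3 and DOCA-salt 2, open triangles the other 3 libraries. Tfrc in principal cells has all DOCA-salt points below all sham points, and Hmox1 in macrophages spans overlapping ranges.

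The cluster called injured tubule had Gclm and Fth1 called higher and Srxn1 lower, where 6.78% of all genes were higher and 8.51% lower. Nqo1 was also past the threshold, but it passed the count filter only through the DOCA-salt libraries, so its call is not counted as support. The markers that gave the cluster its name differed between the groups in both directions. Havcr1 was at 1.48 CPM in sham and 138 in DOCA-salt cells (group means). Krt20 was at 35.5 and 17.4, Vcam1 at 403 and 332, Dcdc2a at 318 and 192, and Sprr2f at 0 and 0.144. The part of these marker differences in the results of the cluster was not tested. The cluster held 12, 30 and 35 cells in sham 1 to 3 and 179, 194 and 231 in DOCA-salt 1 to 3. Srxn1 (chr2:151947436-151957687, plus strand), which rescues overoxidised peroxiredoxins, fell there from 72.9, 49.4 and 70.8 in sham to 21.3, 23.7 and 19.1 in DOCA-salt mice. These values rest on 69 sham and 290 DOCA-salt UMIs, and the groups did not overlap. The change of -1.45 ± 0.24 (SE, adjusted p = 0.00034) held under all 17 alternatives. In the proximal tubule Srxn1 was 22.3, 17 and 21.3 against 18.5, 23.6 and 19.8, overlapping throughout, and the difference between the types was -1.36 ± 0.22 (SE, adjusted p = 2.6e-05).

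In the same cluster, with Havcr1 near absent on the sham side, Gclm and Fth1 were higher in DOCA-salt cells. Gclm was 179, 224 and 206 in sham and 274, 278 and 289.5 in DOCA-salt mice, a change of 0.53 ± 0.16 (SE, adjusted p = 0.032). Fth1 was 4541, 5103 and 4939 in sham and 7348, 6875 and 7026 in DOCA-salt mice, a change of 0.63 ± 0.19 (SE, adjusted p = 0.028). No DOCA-salt mouse overlapped a sham mouse for either gene. Both calls were lost in 9 of 17 alternatives, the Gclm call without sham 1, sham 3 or any DOCA-salt mouse (adjusted p 0.057 to 0.090) and the Fth1 call without sham 1, sham 3, DOCA-salt 1 or DOCA-salt 3 (0.059 to 0.083). With doublets kept the changes were 0.32 for Gclm and 0.27 for Fth1. Nqo1 had 2 UMIs in all sham cells of this cluster and 137 in DOCA-salt cells, so that its sham level was at the limit of detection, and no fold or p is given here. The fitted difference listed with the flagged results rests on the same 2 UMIs. With any DOCA-salt mouse left out Nqo1 did not pass the count filter.

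Compared with the proximal tubule, 4 genes had a higher and 1 a lower change in injured cells, where 9.64% of all genes were higher and 7.69% lower. The differences were 1.27 ± 0.13 (SE, adjusted p = 1.0e-08) for Fth1, 1.02 ± 0.15 (SE, adjusted p = 4.7e-06) for Gclm, 0.83 ± 0.18 (SE, adjusted p = 0.00089) for Gclc and 0.71 ± 0.13 (SE, adjusted p = 0.00016) for Ftl1, each kept in 8 of 8 alternatives. The median difference over all genes was 0.14, and -0.11 with library size only, a scaling under which these 4 calls and that of Srxn1 held. Nqo1 is left out of these counts for its 2 sham UMIs. Markers of the proximal tubule moved with these genes. Their summed level in the injured cluster was 3033 to 4671 in sham and 11253 to 14019 in DOCA-salt mice, against 23058 to 40727 in the proximal tubule over both groups. Dissociation-response genes summed to 13381 to 18222 in sham and 9622 to 11531 in DOCA-salt injured cells. Their part in these results was not tested either.

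**Figure D5:**
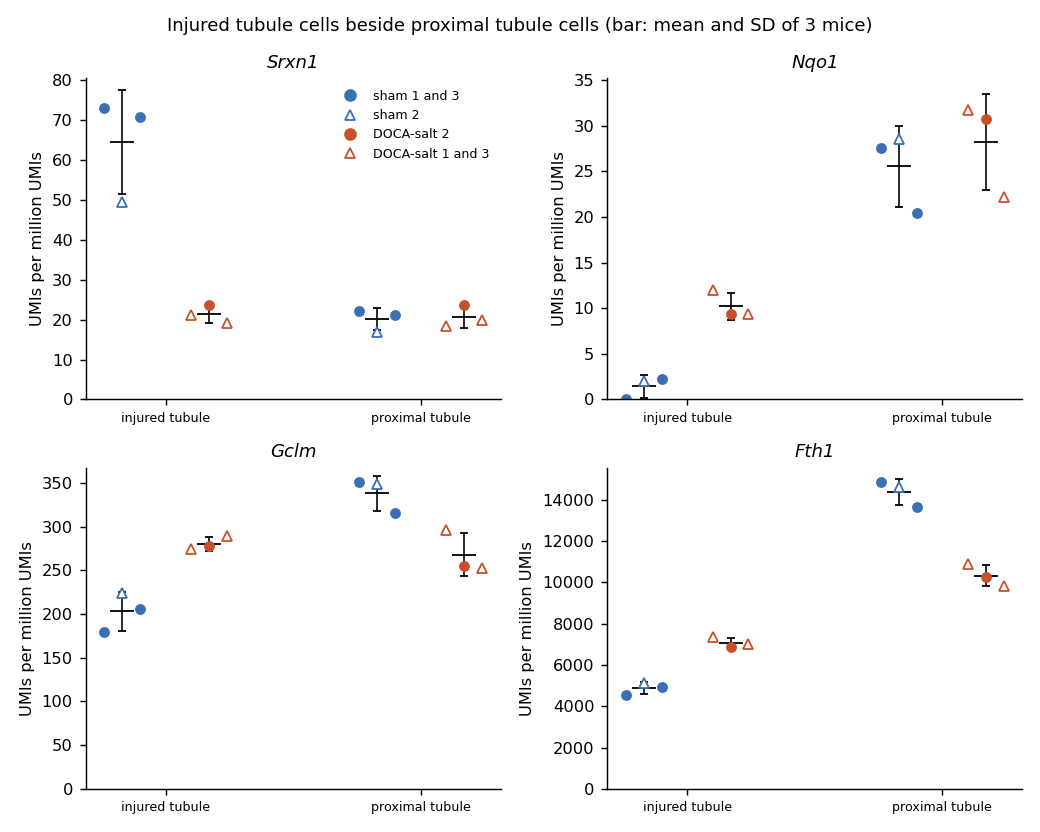
Srxn1, Nqo1, Gclm and Fth1 in injured and proximal tubule cells, in CPM, 1 point per mouse with the mean and SD of each group of 3; filled circles are sham 1, sham 3 and DOCA-salt 2, open triangles the other 3 libraries. In the injured cells Srxn1 is lower and Gclm and Fth1 are higher in every DOCA-salt mouse, and Nqo1 is shown with only 2 UMIs in all sham cells. In the proximal tubule the DOCA-salt points of Fth1 and Gclm lie under the sham points.

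The rest of the pathway was read from 31 other Nrf2 pathway genes and 36 other genes of iron and heme. Of the Nrf2 list, 29 were tested over all cells, with 1 higher (Slc7a11, the cystine carrier) and 2 lower. Me1, which makes NADPH, changed by -0.47 ± 0.13 (SE, adjusted p = 0.046) and Mafk, a small Maf partner, by -0.29 ± 0.08 (0.044). The Me1 call was kept in 8 and the Mafk call in 3 of 15 alternatives. The median of the list was -0.17, beside -0.025 for all genes, of which 11.8% were higher and 5.57% lower. In the proximal tubule 28 were tested and only Cbr1, a carbonyl reductase, was called, at 0.67 ± 0.16 (SE, adjusted p = 0.040). Its call was lost in 5 of 17 alternatives, among them without sham 3 or any DOCA-salt mouse (adjusted p 0.053 to 0.13). All genes tested in the proximal tubule were called higher in 4.42% and lower in 1.9%.

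In macrophages 27 of the Nrf2 list were tested, 2 were higher and none was lower, with a list median of -0.21, beside 2.78% and 2.66% of all genes and a median of -0.011. Slc7a11 was 12, 3.72 and 7.41 in sham and 22.0, 40.8 and 35.3 in DOCA-salt macrophages. Its change was 1.95 ± 0.40 (SE, adjusted p = 0.0079), kept in the 16 alternatives in which it was tested. The sham levels rest on few UMIs, and Slc7a11 passed the count filter only through the DOCA-salt libraries. Its call is therefore not counted as support. Nfe2l2, the gene of Nrf2 itself, was 237, 236 and 215 in sham and 356, 368 and 353 in DOCA-salt mice. Its change was 0.53 ± 0.14 (SE, adjusted p = 0.038). The call was lost in 7 of 17 alternatives, among them without sham 1, sham 3 or any DOCA-salt mouse, with the replicate block (adjusted p = 0.18) and in clusters with at least 5 cells of every mouse (also 0.18). Of 7 macrophage clusters, that led by Mmp13, Ccl4 and Ccl3 held 59 to 108 cells per sham mouse and 5 to 16 per DOCA-salt mouse. The cluster led by Lilra5 and Adgre1 held 3 to 29 and 189 to 240, so the macrophage values compare groups with different clusters. Proximal tubule markers summed to 3866 to 5888 in sham and 1637 to 2573 in DOCA-salt macrophages, without overlap, and their part in the macrophage values was not tested.

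Of the iron and heme genes outside the 10, 33 were tested over all cells, 10 were higher and none was lower, beside 11.8% and 5.57% of all genes. The list median was 0.012 and that of all genes -0.025. Lcn2, which carries iron bound to siderophores and is made by damaged tubules, was 14.8, 7.43 and 9.76 in sham and 48.1, 61.1 and 39.98 in DOCA-salt mice. Its change was 2.10 ± 0.26 (SE, adjusted p = 0.0016). Ceruloplasmin (Cp), an iron oxidase, changed by 0.83 ± 0.13 (0.0047), transferrin (Trf) by 1.32 ± 0.25 (0.0093), the scavenger receptor Lrp1 by 3.13 ± 0.26 (0.00032) and the importer Slc39a14 by 0.43 ± 0.12 (0.048). The Trf call was lost when immune cells and fibroblasts were left out (adjusted p = 0.24), and the Slc39a14 call in 10 of 15 alternatives. Of 29 tested in the proximal tubule, 4 were higher (Lcn2, Cp, Tfr2 and Lrp1) and 1 lower, beside 4.42% and 1.9% of all genes. Blvrb, a biliverdin reductase, was lower there at -0.82 ± 0.15 (SE, adjusted p = 0.015), with 41.3, 28.5 and 39.1 in sham and 23.1, 21.6 and 19.6 in DOCA-salt mice. That call was lost without sham 1 (adjusted p = 0.065), DOCA-salt 2 (0.056) or DOCA-salt 3 (0.079) and with the replicate number as a block (0.065). Macrophages had 1 of 23 higher (Lrp1) and none lower, beside 2.78% and 2.66% of all genes. The Lrp1 call was lost in 5 of 17 alternatives, among them without sham 1 (adjusted p = 0.087), sham 3 (0.14) or DOCA-salt 3 (0.066) and in clusters with at least 5 cells of every mouse (0.48).

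In the other types with a call among the 10 genes, the lists did not move one way. The injured tubule cluster had 2 Nrf2 genes higher (Cat and Me1) and 5 lower (Ephx1, Gstm1, Mafk, Mafg and Abcc1) of 27, with 3 iron genes higher (Aco1, Steap2 and Ncoa4) and Cp lower of 26, beside 6.78% of all genes higher and 8.51% lower. In the distal convoluted and connecting tubule 3 of 27 Nrf2 genes were higher (Txn1, Mafk and Sqstm1), and of 22 iron genes Lcn2 was higher and Flvcr1, Blvra and Blvrb were lower, beside 489 higher and 316 lower of all 10042 genes. Principal cells had 1 of 27 Nrf2 genes higher and 3 lower, with 4 of 24 iron genes higher and 3 lower, beside 1021 higher and 859 lower of 11807. Intercalated cells had 3 of 28 Nrf2 genes lower (Ugdh, Mafk and Bach1) and 2 of 23 iron genes higher, beside 321 higher and 370 lower of 11713. Endothelial cells had 1 of 27 Nrf2 genes lower (Ephx1) and 1 of 26 iron genes higher (Lcn2), beside 634 higher and 419 lower of 12557. Mafk, lower over all cells, in intercalated cells and in the injured tubule cluster, was thus higher in the distal convoluted and connecting tubule. Cp, higher over all cells, was lower in the injured tubule cluster. These genes were named after their values were seen.

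Hemoglobin genes, a sign of red cell RNA, summed to 0.632 to 2.98 CPM in sham and 12.2 to 23.0 in DOCA-salt mice in the cells kept. Over all barcodes before filtering, their share of UMIs was 5.5e-05%, 0.0021% and 0.00026% in sham 1 to 3. In DOCA-salt 1 to 3 it was 0.0018%, 0.0024% and 0.0024%, so sham 2 lay among the DOCA-salt mice. Of the 21 dissociation-response genes, 1 was higher and none lower over all cells, none was called in the proximal tubule, and 2 were higher and 3 lower in macrophages. The shares of all genes were 11.8% higher and 5.57% lower over all cells, 4.42% and 1.9% in the proximal tubule, and 2.78% and 2.66% in macrophages. Over 26 points (13 cell types in both groups), the genes whose levels ran most like Hmox1 were Ccdc152 (Pearson r 0.86), Ftl1-ps1 (0.86) and Ftl1 (0.85). For Srxn1 they were Pcyox1 (0.92), Yif1a (0.91) and Tmco1 (0.88), and for Slc40a1 they were Afm, Rab17 and Plekha6 (0.85, 0.85 and 0.84). These points share libraries and depth, so the values are a description.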

How the data were processed

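Kidney cells of 3 sham and 3 DOCA-salt mice were read with 10x 3′ v3.1 chemistry after collagenase digestion. The authors deposited raw UMI counts per gene and barcode. The submitters' processing notes name Cell Ranger 9.0.0, Seurat 4.0.0 and R 4.0.3 with GRCm39, and the matrix headers name Cell Ranger 8.0.1. Barcodes with at least 170 genes, 500 UMIs, no more than 50% mitochondrial and no more than 5% hemoglobin UMIs were kept (60561 of 76774; 16210 were above the mitochondrial limit). A doublet score against simulated pairs removed 5215, at 0.8% per 1000 cells. The 55346 remaining cells were clustered (2000 variable genes, 30 principal components, 15 neighbours, Leiden resolution 1) and clusters named from marker genes, leaving 1110 cells unnamed. Counts were summed per mouse and cell type, for types with at least 10 cells of every mouse. Cycling cells met this limit and were not tested, since that cluster name marks a state that can hold several cell types.

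The sums were tested with edgeR 4.0.16 (filterByExpr, TMM, quasi-likelihood test, R 4.3.3) and p-values were adjusted by Benjamini and Hochberg over all genes tested, with 0.05 as threshold. An SE is the log2 change divided by the root of F. Differences of change between cell types were interaction terms with the mouse as block. DESeq2 1.42.0, other scalings, no count filter, left-out mice, other cell filters and other clusterings were alternatives. Cell types were compared over the 6 mice by exact sign-flip tests and shares of cells by exact permutation tests. The fits were tested on simulated data. Of the genes changed 2-fold, 69% were recovered in the proximal tubule design (16190 genes) and 56% in that of macrophages (8663 genes). At any fold, 11 of 176 and 9 of 158 calls were false. Whether these shares hold under the shift between libraries was not tested. Replicate numbers did not pair the mice (correlations of same-numbered deviations -0.10, -0.77 and -0.21 over 9213 genes).

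All 10 genes are named in every fit, and those under the filter were not tested. From the pathway lists, called genes that averaged 10 CPM or more over the 6 mice were named with values, up to 6 in each direction, and others only where a count of 5 or fewer was spelled out, after their values were seen. For Hmox1, Srxn1 and Slc40a1 the 3 genes of highest correlation were named, among those with 20 CPM in at least 1 cell type. The 10 genes and the lists were chosen with earlier results of these data known. Intervals cover counting and mouse-to-mouse error only.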

Additional observations from a re-analysis of the deposited data

Results flagged for a closer look

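The change in a cell type differed from the change in the proximal tubule for 18 pairs of a gene and a type (edgeR interaction test), with all 10 genes tested in each type. In the types and directions of these pairs, 3.22% to 9.64% of all genes were called. All 18 pairs share the proximal tubule libraries, and 17 of them come from types chosen for this test after their changes were seen. In the cluster called injured tubule the difference was 1.27 for Fth1, 1.02 for Gclm, 0.83 for Gclc, 0.71 for Ftl1 and -1.36 for Srxn1 on the log2 scale. In that cluster Havcr1 was at 1.48 CPM in sham and 138 in DOCA-salt cells, while Krt20, Vcam1 and Dcdc2a were higher in sham, and the part of these marker differences was not tested. For Nqo1 it was 2.58, a fitted value that rests on 2 sham UMIs, depends on the prior count and is not counted as support. In principal cells it was -0.97 for Tfrc, -0.89 for Slc40a1 and -0.74 for Gclc. In intercalated cells it was -0.80 for Slc40a1, -0.68 for Gclc and 0.67 for Tfrc. In distal convoluted and connecting tubule cells it was -0.57 for Tfrc, -0.56 for Srxn1, -0.52 for Gclc, 0.52 for Ftl1 and 0.53 for Fth1. In endothelial cells it was -0.83 for Nqo1.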

How the results depend on the processing

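Among 2711 single values recomputed under an alternative, 2520 kept their side of the threshold, 136 lost a call, 55 gained one and 0 reversed a called direction. Most of the 2520 had no call to lose: 2054 were fitted changes uncalled both times, and 130 of those changed sign. At no more than 20% mitochondrial UMIs, 1 gene was higher in all cells and 1 in the proximal tubule, Slc40a1 in both. DESeq2 and the term for the shift between libraries each gave 2 lower in the proximal tubule (Fth1 and Gclm). Of all genes there they called 659 and 1138 lower, against 309 in the main fit. In the other 11 types the 3 higher calls became 1 with library size only, 5 without the count filter, 0 without doublet removal and 1 when adjusted over all cell types together. Differences from the proximal tubule without the count filter gave 2 higher in macrophages, 1 in endothelial and 1 in principal cells. With library size only they gave 2 lower in endothelial cells, 1 higher in the thick ascending limb, 0 higher in intercalated and 1 lower in distal convoluted and connecting tubule cells. That scaling moved the median of all genes from -0.025 to 0.088 in all cells, from -0.006 to 0.13 in the distal convoluted and connecting tubule and from -0.011 to 0.10 in macrophages. Over all genes the higher and lower calls went from 2301 and 1091 to 2835 and 632 in all cells, from 489 and 316 to 773 and 210 in the distal convoluted and connecting tubule, from 321 and 370 to 255 and 494 in intercalated cells, from 242 and 231 to 352 and 157 in macrophages, and from 1498 and 1195 to 778 and 1780 for the injured tubule difference. The causes were not tested.

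Leaving out 1 mouse gave 0 to 1 higher and 1 to 5 lower genes in all cells, 0 to 1 higher in the proximal tubule, and 0 to 2 higher and 5 to 16 lower in the other types. The highest counts of lower genes came without sham 2, a setting that keeps sham mice from only 1 side of the split between libraries. For the differences from the proximal tubule these ranges were 0 to 1 higher in macrophages, the thick ascending limb and principal cells, and 0 to 1 in either direction in endothelial cells. They were 0 to 2 higher and 1 to 2 lower in intercalated cells, and 0 to 3 higher and 1 to 2 lower in distal convoluted and connecting tubule cells.

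With the replicate block, the other 11 types had 1 higher and 5 lower, and all cells 2 lower. Genes called in all fell from 3392 to 2138 in all cells and from 1026 to 237 in the proximal tubule. Same-numbered mice did not deviate together, so the block is no test of pairing.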
